A study of Mus musculus with 28 samples.

Results

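Vesicular glutamate transporters fill synaptic vesicles with glutamate and are what allows a neuron to release it. The family in mouse has 3 members, taken here by name: Slc17a6, which encodes VGLUT2, Slc17a7, which encodes VGLUT1, and Slc17a8, which encodes VGLUT3. All 3 were found among the 23453 genes of the exonic count table and among the 20422 genes of the intronic one. They are described in each of 28 single cells of mouse cortex, together with genes of glutamate supply and vesicle filling. By the sample labels, 12 of these cells were neurons and 8 were astrocytes, both C57/BL6 cells in primary culture taken up with a pipette. The other 8 were C57/BL6/N interneurons, drawn into a patch clamp pipette from acute slices. No treatment is labelled and no animal or culture is named for a cell. The labels' protocol for the cultured cells speaks of a perfused 3-month-old male mouse. The study's methods instead describe dispersed neuron and astrocyte cultures from mouse embryos of both sexes.

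VGLUTs are carried in the vesicle membrane and are driven by the proton gradient that the vacuolar ATPase builds up. VGLUT1 is known from pyramidal neurons of the cortex and hippocampus, VGLUT2 from the thalamus and brainstem and from the developing cortex. VGLUT3 is known from neurons that release another transmitter as well, among them cholinergic, serotonergic and cholecystokinin-containing cells. The glutamate itself is in large part made from glutamine, which astrocytes supply.

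The table columns carry codes, and 0 of the 28 codes match a sample label, so no column was given a cell type and no test between blocks or cell types was made. The columns were laid out by code in 3 blocks: 12 columns from BRP528 to BRP543 (the BRP-12 block), 8 from BRP564 to BRP572 (the BRP-8 block) and 8 whose code begins with F (the F block). These sizes equal those of the labelled groups, but equal sizes do not tie a column to a type. The blocks were proposed with marker levels in view, so marker levels are no check of them. Exonic totals ran from 17483754 to 26770944 counts in the BRP-12 block, from 12969692 to 19798892 in the BRP-8 block and from 838343 to 14831505 in the F block. For a cell without a count of a gene, a limit of 3 counts was taken, which covers read sampling alone. It equals 0.112 to 0.172 counts per 1000000 exonic counts of the cell (CPM) in the BRP-12 block. In the BRP-8 block it is 0.152 to 0.231 and in the F block 0.202 to 3.58. All intervals given are 95% intervals of counting error alone, as amplified reads without molecular identifiers are not independent molecules. The labels give different library kits for cultured cells and interneurons, so kit and cell type cannot be told apart.

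Markers were summed in each cell. Neuron markers (6 genes, among them Snap25, Map2 and Rbfox3) came to 4737 to 8469 CPM in the BRP-12 block, 299 to 801 in the BRP-8 block and 1608 to 16746 in the F block. Astrocyte markers (7 genes, among them Aqp4, Gfap and Aldoc) came to 0.0409 to 1402 CPM in the BRP-12 block, 1424 to 5894 in the BRP-8 block and 0 to 556 in the F block, with Aldh1l1 and S100b at 0 throughout the last. Markers of GABAergic interneurons (9 genes) came to 0.538 to 3447, 9.82 to 190 and 565 to 11886 CPM in the same order. Oligodendrocyte markers (4 genes) reached 610 CPM and endothelial markers (3 genes, Cldn5 at 0 in every cell) 19.7 CPM. Microglia markers (4 genes) reached 2093 CPM in F16, the shallowest cell. The endothelial value was that of Flt1 alone and the microglia value that of Csf1r alone, with the other genes of these lists at 0 in those cells. The part of these other cell types in the values below was not tested.

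The members lie apart in the genome (GRCm38). Slc17a6 runs from 51622006 to 51671119 on the plus strand of chromosome 7, with 5.40 kb of exons and 43.7 kb of introns. Slc17a7 runs from 45163949 to 45176142 on the plus strand of the same chromosome, with 5.39 kb of exons and only 6.80 kb of introns. Slc17a8 runs from 89574020 to 89621253 on the minus strand of chromosome 10, with 4.72 kb of exons and 42.5 kb of introns. No pair of them shared a stretch of 31 bases between their annotated transcripts (0 shared), so exonic reads of that length cannot be split between members. Within Slc17a6 and Slc17a7 the annotation holds a small gene on the same strand, Gm45072 and Mir7055, neither of which is in the tables.

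The 150 bases before each RefSeq start are shown (GRCm38.p6, 5′ to 3′ on the gene's strand). Capitals mark E-boxes (CANNTG, the motif that NeuroD and other bHLH factors recognize) and GC boxes (GGGCGG, the Sp1 motif) found on either strand.
Slc17a6, chr7:51621680-51621829, plus strand: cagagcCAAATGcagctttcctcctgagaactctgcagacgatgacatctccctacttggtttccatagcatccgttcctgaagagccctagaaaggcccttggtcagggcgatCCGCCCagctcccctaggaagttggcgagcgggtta
Slc17a7, chr7:45163771-45163920, plus strand: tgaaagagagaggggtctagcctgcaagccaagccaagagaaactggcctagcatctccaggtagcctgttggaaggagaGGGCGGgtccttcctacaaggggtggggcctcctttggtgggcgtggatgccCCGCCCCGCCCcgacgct
Slc17a8, chr10:89621250-89621399, minus strand: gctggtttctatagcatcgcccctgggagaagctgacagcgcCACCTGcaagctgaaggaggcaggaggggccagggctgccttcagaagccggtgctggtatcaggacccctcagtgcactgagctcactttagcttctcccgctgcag
The Slc17a6 window held 1 E-box and 1 GC box, the Slc17a7 window 3 GC boxes and no E-box, and the Slc17a8 window 1 E-box and no GC box. In Slc17a7, the last pair of GC boxes overlapped by 1 base. G and C made up 56.0%, 63.3% and 61.3% of the windows in the same order. Of 32851 windows of this length before RefSeq starts, 47.7% held an E-box and 28.6% a GC box, so neither motif is rare. The RefSeq table lists 2 starts for Slc17a6, 1 for Slc17a7 and 2 for Slc17a8, of which the first was taken. These starts differ from the gene bounds given above. The Slc17a6 window ends at 51621829, ahead of the gene start at 51622006. Whether the motifs bear on the counts was not tested.

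Slc17a6 was the member with most counts. It had exonic counts in 14 of the 28 cells, 82394 in all, of which 97.5% lay in the BRP-12 block. Its level there went from 0 in BRP528 over a median of 196 CPM to 1012 CPM in BRP542. After BRP542 came BRP535 with 732 CPM and BRP543 with 668 CPM, while BRP540, BRP538 and BRP529 lay at 86.5, 78.8 and 69.1 CPM. The 11 cells of this block with the transcript thus spanned a 14.7-fold range. In the BRP-8 block nearly all counts came from a single cell: BRP566 had 2095 counts (133 CPM), BRP570 had 1 and the other 6 cells had none. In the F block F11 had 1 count, and the other 7 cells were at 0.

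Slc17a7 had exonic counts in 15 cells, 8538 in all, and 99.1% of them lay in the BRP-12 block. Again BRP528 was at 0. The median of the block was 22.0 CPM and the highest level 94.8 CPM, in BRP537, followed by BRP535 with 70.6 CPM. BRP529 and BRP542 had the lowest levels above 0, with 4.07 and 8.33 CPM, and the 11 cells with the transcript spanned a 23.3-fold range. BRP542, the cell highest in Slc17a6, was therefore next to the lowest of the 11 in Slc17a7. In the BRP-8 block there was 1 count in BRP568 and there were 2 in BRP569. In the F block F1 had 73 counts (4.92 CPM), F2 had 1 and the other 6 cells were at 0. The level of F1 was within the range of the 11 cells, close to that of BRP529.

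Slc17a8 was hardly detected. Its exonic counts came to 13 over all 28 cells (Poisson interval 6.92 to 22.2). Of the 13, 9 were in BRP542 (0.438 CPM), and BRP536, BRP537, BRP566 and F24 had 1 each. In F24, a cell with 2116359 exonic counts, 1 count was worth 0.473 CPM. For cells without a count, the limits above cover read sampling alone and do not bound VGLUT3 transcript lost before sequencing. Single counts can fall below these limits, as in BRP536, BRP537, BRP566 and F24.

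**Figure D1:**
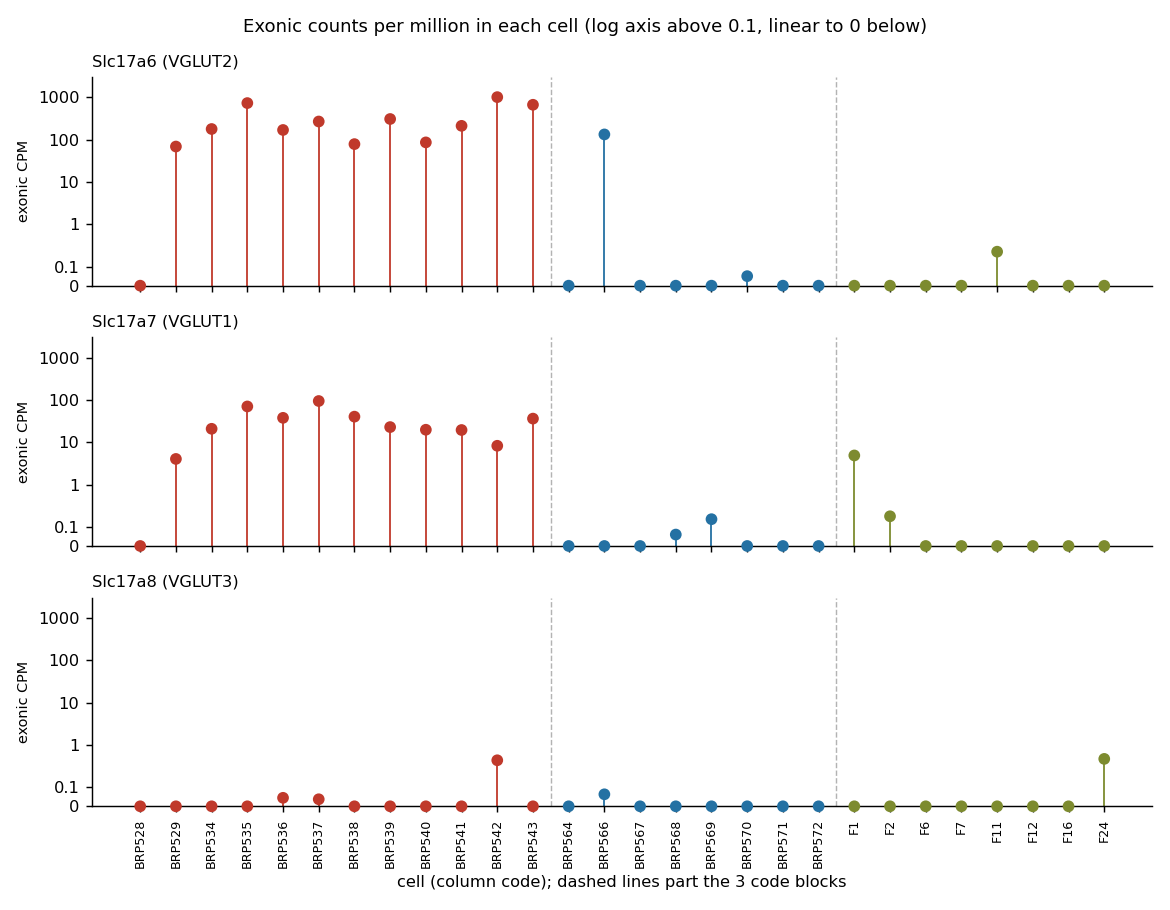
Exonic CPM of Slc17a6, Slc17a7 and Slc17a8 (log axis above 0.1, linear to 0 below) in each of the 28 cells, 1 point per cell, with dashed lines between the 3 code blocks. Slc17a6 and Slc17a7 stand high in the same 11 cells from BRP529 to BRP543, BRP566 stands out for Slc17a6 with 133 CPM and F1 for Slc17a7 with 4.92 CPM, and Slc17a8 stays under 1 CPM in every cell.

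The block medians can be set against those of all genes. Among the 19524 genes with an exonic count in any cell, 12.4% had a median of CPM + 1 in the BRP-12 block at least 2-fold that of the BRP-8 block, and 43.6% at least 2-fold that of the F block. Slc17a6 and Slc17a7, whose medians were 0 in the BRP-8 and F blocks, passed this size in both settings, and Slc17a8, with a median of 0 in all 3 blocks, in neither. For the F block the share of all genes is large, and its cells were also the shallowest. With every cell thinned to 838343 exonic counts in 1 random draw, Slc17a6 was still found in 11 cells of the BRP-12 block and in 1 cell each of the BRP-8 and F blocks. Slc17a7 was then found in 11, 0 and 1 cells in the same order, and Slc17a8 in 0, 1 and 1. Slc17a6 in the F block and Slc17a8 in the BRP-8 and F blocks had 1 count before thinning, so whether it was kept depended on the draw. The number of BRP-12 cells with Slc17a6 and with Slc17a7 was thus 11 before and after thinning.

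Levels of different members were compared per kb of exon. Over all cells, Slc17a6 made up 90.6% (90.4 to 90.8) of the exonic counts per kb of the 3 transporters, Slc17a7 9.40% (9.21 to 9.59) and Slc17a8 0.0163% (0.00923 to 0.0272). The share of Slc17a6 was 88.0% without BRP542 and 92.6% without BRP537, the cells that moved it furthest in each direction. The share of Slc17a8 was 0.00654% without BRP542. Averaged over the 19 cells with any member, so that each cell weighs the same, the shares were 66.1%, 28.6% and 5.27%. In this average 7 cells enter with a full share of 1 member, of which 5 hold a single count, BRP569 holds 2 and F1 holds 73.

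In the 11 cells with at least 10 counts of both Slc17a6 and Slc17a7, Slc17a6 was the higher member per kb in every one. The ratio of Slc17a6 to Slc17a7 per kb had a median of 10.4. It was lowest in BRP538 at 1.94 (1.79 to 2.11) and next in BRP537 at 2.83 (2.71 to 2.97). These are the cells in which VGLUT1 transcript came closest to that of VGLUT2. BRP540 and BRP536, at 4.34 and 4.46, could not be told apart by their counting intervals, and neither could BRP535 and BRP541, at 10.4 and 10.8. BRP534 lay between these pairs at 8.53. Above them, BRP539 was at 13.4, BRP529 at 16.9 and BRP543 at 18.3, and the interval of BRP529 overlapped those of both others. BRP542 stood far above with 121 (104 to 142). The cells thus shared 1 order of the members at different ratios. There is no replicate of a cell, so only counting error stands beside these differences.

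**Figure D2:**
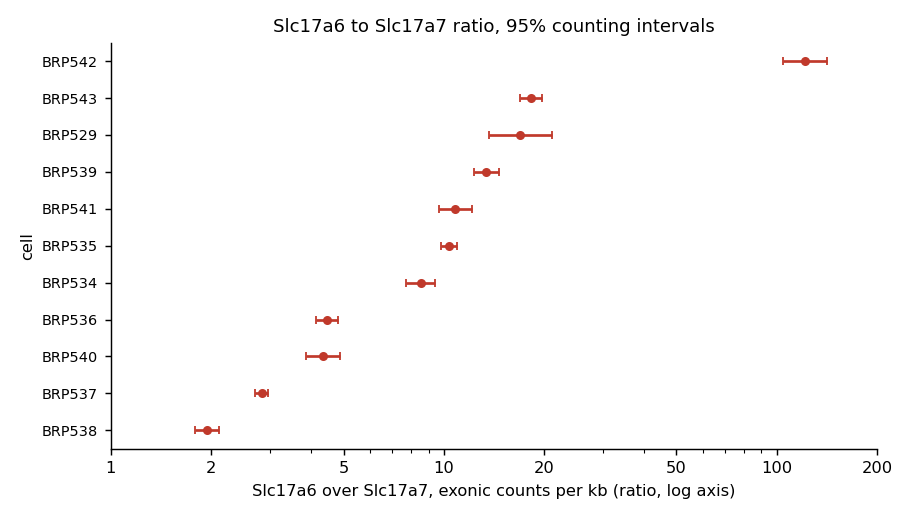
Ratio of Slc17a6 to Slc17a7 exonic counts per kb (log axis) in the 11 cells with at least 10 counts of both, sorted, with bars for the 95% counting interval. All points lie above 1, from 1.94 in BRP538 to 121 in BRP542, and the interval of BRP542 overlaps with no other.

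On the length scale, Slc17a6 ran from 12.8 to 187.5 CPM per kb in these 11 cells with a median of 39.4, and Slc17a7 from 0.755 to 17.6 with a median of 4.27. Both members were therefore found together wherever either reached 10 counts in the BRP-12 block. Outside it this was not so: BRP566 had Slc17a6 and no count of Slc17a7, while F1 had Slc17a7 and no count of Slc17a6.

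Intronic counts, which can come from unspliced RNA, were distributed differently from the exonic ones. Slc17a6 had 2220 intronic counts, 2.62% (2.52 to 2.73) of its counts, and BRP542 alone held 1072 of them. Slc17a7 had 992, or 10.4% (9.80 to 11.04), although its introns are the shortest of the 3, with 534 in BRP537, 209 in BRP543 and 208 in BRP536. Slc17a8 had 272, or 95.4% (92.3 to 97.5), and 139 of these were in BRP543, 79 in BRP528 and 27 in BRP570. For each member, then, 1 cell held close to 50% of the intronic counts or more, with shares of 48.3%, 53.8% and 51.1%.

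For Slc17a6 and Slc17a7 that cell was also the one with the highest exonic level, but in other cells the 2 kinds of count did not go together. BRP528 had 211 intronic and 0 exonic counts of Slc17a6. BRP539 had 7537 exonic and 0 intronic counts of the same gene, and BRP543 13092 exonic and 1 intronic. For Slc17a7, BRP535 had 1501 exonic and 0 intronic counts. In the BRP-8 block all 8 cells had intronic counts of Slc17a6, 3 to 79, although only 2 had an exonic one. In the F block none of the members had more than 5 intronic counts in a cell. The strand setting of the counting is not given in the sources used here, so intronic reads of the opposite strand cannot be told apart from those of the gene.

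**Figure D3:**
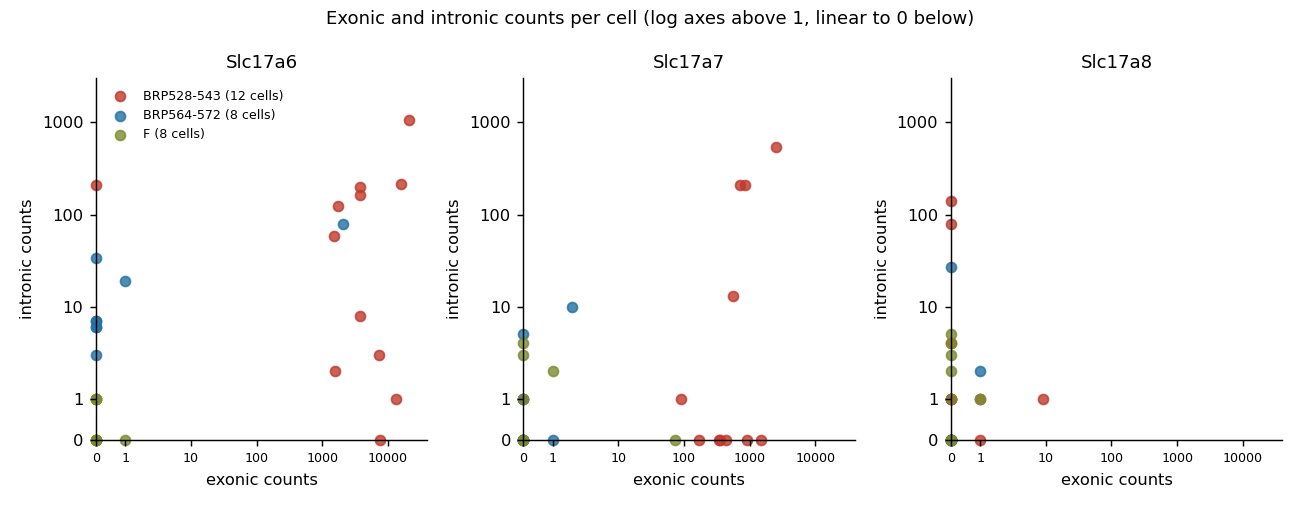
Exonic against intronic counts of each member (log axes above 1, linear to 0 below), 1 point per cell, coloured by code block. Slc17a6 and Slc17a7 points spread over the exonic axis at intronic counts from 0 to 1072, whereas Slc17a8 points keep to the left with at most 9 exonic and up to 139 intronic counts.

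GABA neurons are marked by Gad1 and Gad2, which make GABA, and by Slc32a1, which encodes the vesicular GABA transporter VGAT. BRP528, the cell of the BRP-12 block without exonic counts of any VGLUT, had 1136 CPM of Gad1, 780 CPM of Gad2 and 798 CPM of Slc32a1. BRP528 also had the highest summed astrocyte markers of its block, 1402 CPM, and the highest oligodendrocyte markers of all cells, 610 CPM. BRP529, the lowest of the other 11 cells in both Slc17a6 and Slc17a7, followed with 1153 CPM of astrocyte markers. The part of these markers in the values of both cells was not tested. The other 11 cells of that block had at most 0.204 CPM of Gad1 and Slc32a1 together. Gad2 did not follow this pattern. It was counted in 10 of the 12 cells with a block median of 36.3 CPM, and reached 340 CPM in BRP541, a cell with 213 CPM of Slc17a6. BRP535, BRP537, BRP539 and BRP536 had 64.3, 51.6, 38.6 and 33.9 CPM of Gad2.

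All 8 F cells had counts of Gad1 and 7 had counts of Slc32a1, with sums of this pair of 462 to 8722 CPM. Gad2 was left out of the pair. Its F median was 10.2 CPM, below that of the BRP-12 block, with 1, 0, 4 and 2 counts in F7, F12, F16 and F24. F1, the F cell with Slc17a7, had 5870 CPM of the pair and 5801 CPM of Gad2. It also had 1459 CPM of Cck, which encodes the peptide cholecystokinin. BRP566, the BRP-8 cell with Slc17a6, had 14.6 CPM of the pair, 10.8 CPM of Tbr1 and no count of Snap25. Its astrocyte markers came to 3052 CPM and its neuron markers to 565 CPM, both within the range of its block. The cells with more than 10 CPM of Slc17a6 and Slc17a7 together had at most 14.6 CPM of Gad1 and Slc32a1 together. With Gad2 counted in, BRP541 had 340 CPM of the GABA genes beside 232 CPM of Slc17a6 and Slc17a7, and BRP543 had 128 CPM beside 705 CPM.

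**Figure D4:**
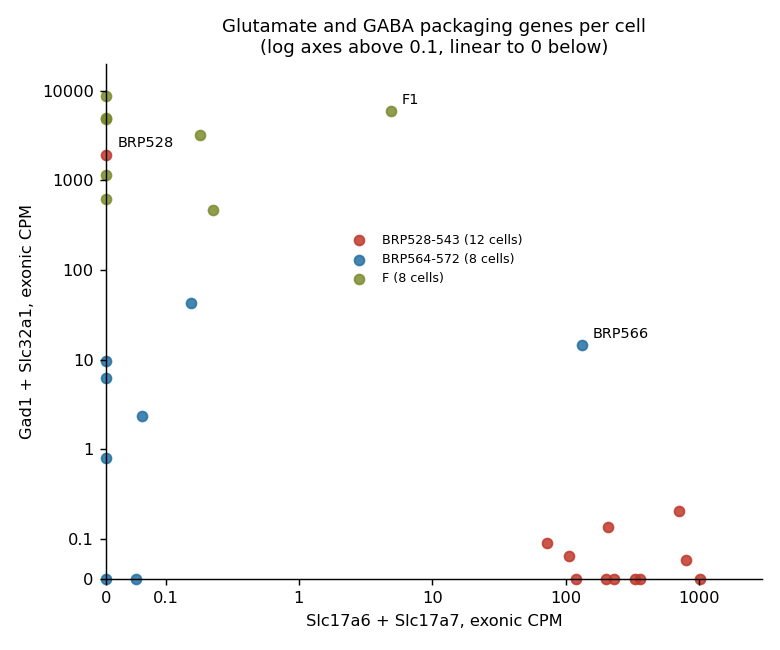
Summed exonic CPM of Slc17a6 and Slc17a7 against that of Gad1 and Slc32a1 (log axes above 0.1, linear to 0 below), 1 point per cell, coloured by code block. Gad2, which did not part the blocks in this way, is not in the sum. The BRP-12 cells lie at the lower right except BRP528 at 0 and 1933 CPM, the F cells lie at the upper left with F1 furthest right at 4.92 CPM, and BRP566 is the BRP-8 cell at 133 CPM.

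Gls2, the liver-type glutaminase, which makes glutamate from glutamine, was scarce. It (chromosome 10, 128194457 to 128210004, plus strand, overlapping 97 bases of Spryd4 on the other strand) had 85 exonic counts in all, 38 in F7 and 24 in F24, and 676 intronic ones.

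The genes that supply and turn over glutamine and glutamate were counted in most cells. Of 8 listed, 6 were found in at least 6 of the 12 BRP-12 cells, as were 11182 of all 23453 genes. At least 4 of the 8 cells held a count for 7 of them in the BRP-8 block and 6 in the F block. The share of all genes was not taken for these 8-cell blocks, so the numbers are not compared between blocks. Glul, the glutamine synthetase, had medians of 95.3 CPM in the BRP-12 block, 225 CPM in the BRP-8 block and 32.8 CPM in the F block. Glud1, glutamate dehydrogenase, had medians of 73.0, 918 and 0.938 CPM in the same order. Slc38a3, a transporter that exports glutamine from astrocytes, was counted in 4 of 12, 8 of 8 and 0 of 8 cells, with a median of 41.1 CPM in the BRP-8 block. Got1, the cytosolic aspartate aminotransferase, had medians of 209, 70.3 and 2.43 CPM. Slc38a1 and Slc38a2, which import glutamine, were counted in all BRP cells, with BRP-12 medians of 45.7 and 129 CPM and BRP-8 medians of 59.0 and 128 CPM. Glul, Glud1 and Slc38a3 thus had their highest block median in the BRP-8 block, where the VGLUTs were at 0 or near it apart from BRP566. Single cells of the other blocks went higher in Glul, with 693 CPM in BRP528, 757 CPM in BRP529 and 1275 CPM in F7. The highest BRP-8 cell had 337 CPM.

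The rest of the SLC17 family was scarce apart from Slc17a5, which encodes sialin, a lysosomal sialic acid transporter, with 5066 exonic counts in 17 cells. The other 5 members had 3 to 48 exonic counts each. Among transporters for other transmitters, Slc18a2, the vesicular monoamine transporter VMAT2, had 1361 exonic counts, Slc18a1 (VMAT1) 903 and Slc18a3, the vesicular acetylcholine transporter, 4.

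Of the vesicle machinery that a VGLUT works in, all 9 vesicle protein genes had a count somewhere in the BRP-12 block. So did all 10 genes of the proton pump and chloride exchange. A count somewhere is common, as 19524 of the 23453 genes had one in any of the 28 cells. Atp6v0c, a pump subunit, had only 5 exonic counts there, in 4 of the 12 cells. Snap25, a SNARE of transmitter release, had medians of 2083, 0 and 1546 CPM in the BRP-12, BRP-8 and F blocks, and Syt1, the calcium sensor of release, 1311, 1.22 and 497 CPM. Atp6v1a, the catalytic subunit of the vacuolar ATPase, had medians of 1984, 609 and 3.16 CPM. Sv2b, a vesicle glycoprotein, was at 0 in all BRP-8 cells, but it had only 5 exonic counts in 2 of the 8 F cells as well. Its BRP-12 median was 1.15 CPM. The summed vesicle protein level in the BRP-8 block, 36.2 to 112 CPM, lay below that of every other cell, and BRP566 with its Slc17a6 was no exception at 46.9 CPM. The sums were 2541 to 5878 CPM in the BRP-12 block and 898 to 15302 CPM in the F block.

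Of 10 genes of excitatory cortical neurons, 9 were found in at least 6 of the 12 BRP-12 cells, as were 11182 of all 23453 genes. At least 4 of the 8 cells held a count for 5 of them in the BRP-8 block and 7 in the F block. For those blocks the share of all genes was not taken, so these numbers are not compared between blocks. The summed level of the list was 212 to 940, 7.32 to 127 and 3.31 to 2237 CPM in the BRP-12, BRP-8 and F blocks. The sum thus did not part the BRP-12 from the F block. Tbr1, a transcription factor of deep-layer projection neurons, had a BRP-12 median of 41.9 CPM and was at 0 in BRP528, while its lowest level in the other 11 cells was 3.37 CPM. Its highest level in the F block was 3.07 CPM, just below those 11 cells. Neurod2 and Neurod6, bHLH factors of excitatory neurons, had BRP-12 medians of 34.6 and 15.9 CPM. Neurod6 was at 0 in BRP535 and BRP541, which had both Slc17a6 and Slc17a7. Fezf2, also of this list, went the other way, with 54 exonic counts in 2 of the 12 BRP-12 cells and 872 in all 8 BRP-8 cells. Camk2a, a kinase subunit abundant at excitatory synapses, had medians of 139, 3.63 and 41.9 CPM in the BRP-12, BRP-8 and F blocks. Bcl11b, which interneurons also express, reached 2207 CPM in the F block and 561 CPM in the BRP-12 block.

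Genes of the neuron classes known for VGLUT3 ranged from abundant to nearly absent. Cck was found in all 12 BRP-12 cells, from 41.6 CPM in BRP528 to 5024 CPM with a median of 1725 CPM, and Cnr1, the cannabinoid receptor of cholecystokinin basket cells, in 11 of them with a median of 62.7 CPM. As every BRP-12 cell had Cck, so did the 3 with exonic counts of Slc17a8, BRP542 with 9 and BRP536 and BRP537 with 1 each. This overlap therefore says nothing about a link. BRP566 and F24, the other cells with a count of Slc17a8, had 0 counts of Cck. Excitatory neurons also express Cck, so it does not mark a VGLUT3 cell by itself. Chat, the enzyme of acetylcholine synthesis, had 14 exonic counts in all, Slc6a4, the serotonin transporter, 6 and Vip 2. Tph2, the enzyme of serotonin synthesis in neurons, had 600 exonic counts, up to 27.2 CPM in a BRP-8 cell. Htr3a, a serotonin receptor subunit, had 138.

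Finally, the genes whose exonic CPM followed each member most closely over the 28 cells were taken by Spearman's rho, among 11436 genes with at least 1000 exonic counts and a count in at least 8 cells. The cells share code blocks and differ in depth, so the values are a description. For Slc17a6 these were Fstl4 (rho = 0.91), 1700019D03Rik (0.87), Ncrna00086 (0.86), Zfp580 (0.86) and Tbr1 (0.86). For Slc17a7 they were Galnt9 (0.91), Kcnj4 (0.90), which encodes an inward rectifier potassium channel, A330009N23Rik (0.89), Gsg1l (0.89), an auxiliary subunit of AMPA receptors, and Prdm8 (0.89). The median rho over all candidates was 0.21 for Slc17a6 and 0.18 for Slc17a7, and 57 and 94 genes reached 0.8. Slc17a7 itself came 172nd for Slc17a6 with a rho of 0.75. Fstl4 had a BRP-12 median of 144 CPM, against highest levels of 1.72 and 0.369 CPM in the BRP-8 and F blocks, and Kcnj4 72.2 CPM against 0 and 3.24 CPM. For Slc17a8, with counts in 5 cells, the highest rho was 0.58 (Trap1), which in counts this sparse is no finding.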

How the data were processed

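Single-cell RNA was amplified, made into libraries and sequenced by the authors, and counts per gene and cell were deposited in 1 exonic and 1 intronic table. These deposited counts are whole numbers with totals that differ between cells, and they were used as raw counts. The submitters' processing notes name bcl2fastq 2.17, STAR 2.4.0 and mm10 without a role; the counting tool, annotation and strand setting are not given in the sources used here. Column codes matched 0 of 28 sample labels, so cells were described one by one and by code block, with no test between blocks and no SD. No column was left unused (0).

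CPM is the exonic count per 1000000 exonic counts of the cell. Exon lengths are merged exons of GENCODE M21 on GRCm38; sequences are from RefSeq. Intervals are exact binomial (shares, ratios) or exact Poisson (sums), at 95%. The named genes are the members in every cell, Gls2, up to 4 genes of highest summed CPM per list, and the 5 genes most alike each member. Slc38a1, Slc38a3, Sv2b, Atp6v0c, Neurod2, Fezf2, Chat, Slc6a4 and Vip, named beyond this rule, were chosen after their values were seen. Certain listed genes are not reported here and were left out of their lists. The members and lists were chosen with earlier results of these data known. The likeness ranking was tested on simulated data. Python 3.11.15, numpy 2.4.6, pandas 2.3.3, scipy 1.17.1 and matplotlib 3.10.9 were used, with R 4.3.3, edgeR 4.0.16 and DESeq2 1.42.0 for alternative scalings only. Alternatives were other count minimums, thinning, intronic counts, other scalings and weightings, and each cell left out.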

Additional observations from a re-analysis of the deposited data

Results flagged for a closer look

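In each block of 8 columns, the highest cell was compared with the next by Dixon's criterion for 4 genes, which makes 8 comparisons. The criterion's chance rate of about 1 in 20 does not hold for values that are mostly 0, as here, and the blocks are not labelled groups, so the values are given as a description. Of the 7 values that stood apart, those with more than a few counts were Slc17a6 in BRP566 (133 CPM against 0.0505 CPM in the next BRP-8 cell), Slc17a7 in F1 (4.92 CPM against 0.181 CPM) and Gls2 in F24 (11.3 CPM against 4.37 CPM). The others rest on 1 or 2 counts, and where the rest of a block is at 0 any count passes: Slc17a6 in F11 (0.228 CPM), Slc17a7 in BRP569 (0.154 CPM), and Slc17a8 in BRP566 (0.0637 CPM) and F24 (0.473 CPM).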

How the results depend on the processing

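The number of cells with Slc17a6 was 14, 12 or 13 under exonic minimums and thinning, but 22 by intronic counts and 24 by counts of either kind, and that of Slc17a7 stayed between 12 and 21. Cells with Slc17a8 numbered 5, against 1 with at least 3 counts, 0 with at least 10 counts or 1 CPM, 2 after thinning, 16 by intronic counts and 17 by either kind. Cells with more than 1 member numbered 12, and 23 by counts of either kind. The shares of Slc17a6, Slc17a7 and Slc17a8 were 91.1%, 8.88% and 0.0281% from summed CPM per kb, and 66.1%, 28.6% and 5.27% as the mean within cells. Leaving out 1 cell gave 88.0% to 92.6%, 7.40% to 12.0% and 0.00654% to 0.0201%, with the lowest Slc17a7 share without BRP537 and the highest without BRP542, the cell that also held most Slc17a8 counts. The median over the 28 cells was 0.0253 CPM for Slc17a6, 0.107 CPM for Slc17a7 and 0 for Slc17a8. It became 174, 19.9 and 0.0637 CPM over cells with a count, and for Slc17a7 0.0629 CPM with DESeq2 size factors and 0.0712 CPM with exonic plus intronic totals. Leaving out 1 cell moved it between 0 and 0.0505, between 0.0606 and 0.154, and left it at 0. Intronic shares as medians within cells were 5.80%, 17.4% and 100%, and leaving out 1 cell gave 1.83% (without BRP542) to 3.10% (without BRP543), 7.09% (without BRP537) to 12.4% (without BRP535) and 91.1% (without BRP543) to 98.5% (without BRP542). Of the 5 genes most alike each member, 1, 3 and 1 remained with Pearson's r on log2(CPM + 1), and 5, 5 and 0 with at least 100 counts in 4 cells. The median over 28 cells falls between cells with and without the transcript, which is why it moves by a large factor. No paired analysis was possible because the columns carry no sample label and so no replicate number. Depth limits the F block most, where 3 counts are worth up to 3.58 CPM.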
